A study of Mus musculus with 6 samples.

Results

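Guanylate-binding proteins (Gbp genes) and immunity-related GTPases (Irg genes) were followed in lymphatic endothelial cells of mouse melanomas. The 9 genes Gbp2, Gbp3, Gbp4, Gbp5, Gbp7, Igtp, Iigp1, Irgm1 and Irgm2 were taken by symbol, with their differences between the genotypes in these same libraries known, and all 9 of 9 are among the 13454 genes measured. The cells were sorted for CD31 and GP38 without CD45 from tumours of B16-OVA-VEGFC, a lymphangiogenic melanoma line that had been transplanted into mice. One group, LEC-Ch25h KO (the knockout below, 3 libraries), came from hosts that lack Ch25h in lymphatic cells. The other, LEC-CH25h WT (WT below, 3 libraries), came from their littermates, and both groups bore the same tumour. The labels give no age and no Cre driver, and they do not say whether each library is a separate mouse, so the SDs, SEs and p-values given here may reflect technical spread alone.

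The targeted gene was checked first. Ch25h, which makes 25-hydroxycholesterol and is itself induced by interferon, stood at 82.9, 88.8 and 106 CPM (reads relative to a library's total, on a per-million scale adjusted between libraries) in WT 1, 2 and 3. In knockout 1, 2 and 3 it stood at 0, 0.0232 and 2.95 CPM. Knockout 3 therefore kept more Ch25h reads (117) than the other two.

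Both protein families are made in response to interferons, above all interferon gamma, and the transcription factor IRF1 takes part in their induction. Gbp proteins are large GTPases that assemble on the vacuoles of intracellular parasites and on bacteria in the cytosol, and Irg proteins disrupt such vacuoles. Irgm1, Irgm2 and Igtp (also called Irgm3) are the regulatory members that sit on the cell's own membranes, while Iigp1 (also called Irga6) is an effector that loads onto the parasite's vacuole. In tumours, lymphatic endothelium is known to answer interferon gamma from T cells by raising antigen presentation genes and PD-L1.

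Promoter sequence is shown first because each of the 7 genes searched holds there the letters of a known interferon response element. RefSeq promoter windows (GRCm38.p6), from 250 bases before to 50 after the transcription start, were matched by symbol for 7 of the 9 genes, in 8 windows because Gbp3 has a pair of starts. No window was matched for Gbp4 and Iigp1. The windows were searched for GAS, an element of interferon gamma responses, written TTCNNNGAA, and for ISRE, an element that IRF proteins bind, written GAAANNGAA, on both strands. GAS reads the same on either strand, and overlapping matches were counted separately. An ISRE match was found in 7 of the 7 genes (7 of 8 windows) and a GAS match in 4 of 7, which were Gbp5, Gbp7, Igtp and Irgm2. Among all 32851 windows of this length, 8.56% held an ISRE match, 8.30% a GAS match and 1.07% both. A match describes letters in the window and is not a measured binding site. The stretches that hold the matches are printed 5′ to 3′ on the strand of the gene, with the matches in capitals. In Gbp3 and in Irgm1 a pair of ISRE matches overlaps, and the capitals cover both.
Gbp2: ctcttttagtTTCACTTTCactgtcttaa
Gbp3: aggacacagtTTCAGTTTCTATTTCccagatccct
Gbp5: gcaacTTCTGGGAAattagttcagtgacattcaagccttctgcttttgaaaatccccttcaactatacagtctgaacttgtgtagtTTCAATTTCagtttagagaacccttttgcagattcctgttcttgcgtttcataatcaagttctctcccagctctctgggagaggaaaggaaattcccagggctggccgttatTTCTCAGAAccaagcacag
Gbp7: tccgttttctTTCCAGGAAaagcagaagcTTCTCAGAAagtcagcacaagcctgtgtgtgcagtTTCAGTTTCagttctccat
Igtp: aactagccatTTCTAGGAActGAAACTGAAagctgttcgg
Irgm1: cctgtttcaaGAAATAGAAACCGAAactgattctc
Irgm2: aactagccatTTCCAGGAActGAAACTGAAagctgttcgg

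The stretches lie at chr3:142620595-142620623 for Gbp2, chr3:142559990-142560024 for Gbp3, chr3:142496684-142496900 for Gbp5 and chr3:142530220-142530302 for Gbp7, all on the plus strand. They lie at chr11:58199501-58199540 for Igtp and chr11:58214892-58214931 for Irgm2 on the plus strand, and at chr11:48871426-48871460 for Irgm1 on the minus strand. In Igtp and Irgm2 the GAS match was followed after 2 bases by the ISRE match, and their 40-base stretches differed at 1 base. This spacing, singled out after the matches were seen, occurred in 8 of the 32851 windows (0.0244%). Of these 8, the windows of Adar, LOC115488470 and Olfr382 (also on chromosome 11) are not of GTPase genes of these families. The other 5 belong to GTPase genes of chromosome 11: Igtp, Irgm2 and the relatives Tgtp1, Tgtp2 and Gm12185. The stretches of these relatives, at chr11:48992305-48992344, chr11:49064264-49064303 and chr11:48927239-48927278 on the minus strand, are printed because they keep the spacing.
Tgtp1: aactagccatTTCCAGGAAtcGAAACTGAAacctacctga
Tgtp2: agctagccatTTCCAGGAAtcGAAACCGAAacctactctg
Gm12185: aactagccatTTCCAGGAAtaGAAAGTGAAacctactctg
The stretches of Tgtp1 and Tgtp2 equalled that of Igtp at 31 of 40 bases each, and that of Gm12185 equalled it at 32. Stretches this alike are not separate finds of the spacing.

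**Figure D1:**
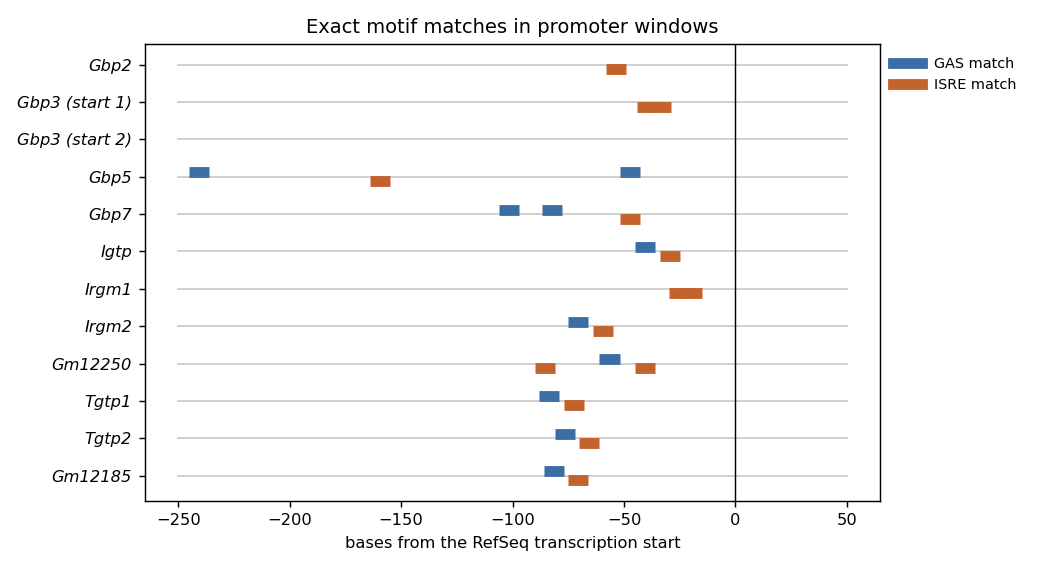
Positions of exact GAS (blue) and ISRE (orange) matches in promoter windows of the GTPase genes and of 4 relatives; the x axis gives bases from the RefSeq transcription start and each grey line is one window. In Gbp2, Gbp3, Gbp7, Igtp, Irgm1 and Irgm2 the ISRE matches begin 24 to 64 bases before the start, and in Gbp5 164 bases before it.

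The genes lie in clusters in the mm10 assembly. Per GENCODE M21, Gbp5 (142493978 to 142522344), Gbp7 (142530342 to 142550149), Gbp3 (142560026 to 142573209) and Gbp2 (142620602 to 142638008) follow each other on the plus strand of chromosome 3. Gbp4 lies on the minus strand of chromosome 5 (105115767 to 105139586). Igtp (58199556 to 58207591) and Irgm2 (58199618 to 58222782) share a stretch of the plus strand of chromosome 11, and Irgm1 lies on its minus strand (48861968 to 48871683). All 9 genes are annotated as protein coding. Exons of Igtp and Irgm2 overlap on the same strand by 162 bases, 8.01% of the exon length of Igtp and 4.39% of that of Irgm2.

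Most of the sequence of these genes is their own. Of all 50-base windows of a gene's transcripts, the share found also in a transcript of another gene was 0.379% for Irgm1, 1.44% for Gbp5, 1.69% for Iigp1, 2.03% for Gbp2 and 3.75% for Gbp3. It was 7.78% for Gbp4, 7.83% for Irgm2, 11.8% for Igtp (all with Irgm2) and 12.7% for Gbp7, mostly with the overlapping pseudogene Gm43802. Some relatives are harder to tell apart, with shares of 81.2% for Tgtp1, 86.6% for Tgtp2, 84.1% for Gbp10, 70.7% for Gbp6 and 83.2% for 9930111J21Rik1. Shares above those of the 9 genes were also found for 9930111J21Rik2 (59.75%), Gm5431 (37.3%), Gm12185 (19.5%), Gbp11 (19.2%) and Gbp8 (18.1%). The handling of reads that fit several genes is not stated in the sources at hand, so values of all these relatives are uncertain. The remaining relatives did not exceed the range of the 9 genes, such as Irgq at 1.03%, Ifi47 at 4.81% and Gbp9 at 8.05%.

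All 9 GTPase genes had a lower mean in the knockout than in WT. Together they took 2653, 3069.9 and 6281 CPM in WT 1, 2 and 3, against 1780.5, 2434 and 879.6 CPM in knockout 1, 2 and 3. The mean sum was 4001 ± 1985 CPM in WT and 1698 ± 780.4 CPM in the knockout (SD, n = 3). WT 3 was the highest and knockout 3 the lowest of the 6 libraries in each of the 9 genes, an arrangement that 5.85% of all 11980 genes tested showed. In the other four libraries the sums lay between 1780.5 and 3070 CPM, and WT 1 and knockout 2 changed places from gene to gene.

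Gbp2 was the most abundant of the Gbp genes, and in mice it is needed for control of the parasite Toxoplasma. It stood at 645, 567 and 1551 CPM in WT 1, 2 and 3, the order kept from here on, and at 277, 439 and 143 CPM in the knockout. The groups did not overlap, and the means were 921 ± 547 and 286 ± 148 CPM (SD, n = 3), a log2 difference of -1.67 ± 0.44 (SE; knockout minus WT, on log2(CPM + 1)). Gbp3 stood at 175, 184 and 355 CPM in WT, against 148, 183 and 93.9 CPM in the knockout. Here knockout 2 lay above WT 1 and just below WT 2, so the groups overlapped, and the log2 difference was -0.72 ± 0.30 (SE).

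Gbp4 and Gbp5 spread the most between libraries. Gbp4 stood at 181, 329 and 649.9 CPM in WT, against 114, 213 and 40.1 CPM in the knockout. Gbp5, which in mice has been tied to assembly of the NLRP3 inflammasome, stood at 42.5, 71.4 and 185 CPM in WT, against 27.7, 49.2 and 6.63 CPM in the knockout. The groups overlapped in both genes, since knockout 2 lay above WT 1. The highest library exceeded the lowest 16.2-fold for Gbp4 and 27.9-fold for Gbp5, against 10.9-fold for Gbp2, 3.78-fold for Gbp3 and 4.57-fold for Gbp7. The log2 differences were -1.76 ± 0.58 for Gbp4 and -1.91 ± 0.67 for Gbp5 (SE). Gbp7 stood at 327, 392 and 688 CPM in WT, against 257, 331 and 150.5 CPM in the knockout, again with knockout 2 above WT 1. Its log2 difference was -0.92 ± 0.32 (SE).

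The regulatory Irg genes had groups that did not overlap. Igtp stood at 234, 203 and 619 CPM in WT, against 163, 186 and 61.2 CPM in the knockout, and the nearest libraries of the groups were WT 2 and knockout 2. Irgm1, which has been linked to autophagy and to control of mycobacteria in mice, stood at 324, 321 and 538 CPM in WT, against 265, 300.2 and 159 CPM in the knockout. Its nearest libraries were again WT 2 and knockout 2. Irgm2 stood at 91.4, 118 and 177 CPM in WT, against 78.4, 74.3 and 38.3 CPM in the knockout, with WT 1 nearest to knockout 1. The log2 differences were -1.32 ± 0.47 for Igtp, -0.71 ± 0.27 for Irgm1 and -1.02 ± 0.30 for Irgm2 (SE). Irgm1 varied the least of the 9 genes, with the highest library 3.39-fold above the lowest.

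The effector gene Iigp1, on chromosome 18 (plus strand, 60376027 to 60392634), had the highest mean CPM of the 9 genes. It stood at 632, 885 and 1517 CPM in WT, against 449, 658 and 187 CPM in the knockout. Knockout 2 lay above WT 1, so the groups overlapped. The log2 difference was -1.31 ± 0.44 (SE).

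**Figure D2:**
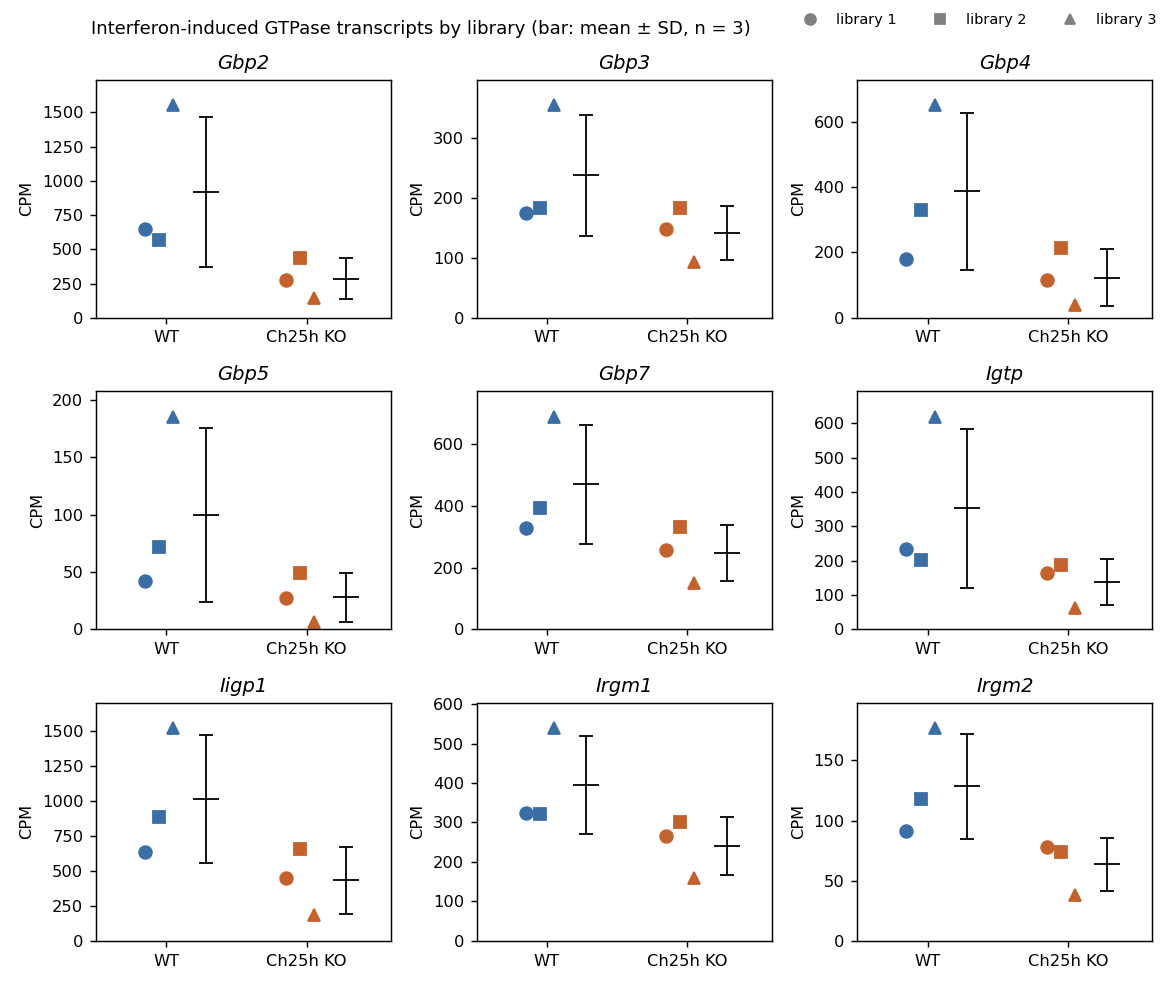
CPM of each GTPase gene (1 panel a gene, y axis from 0) in the 3 WT (blue) and 3 knockout (orange) libraries; symbols give the library number and the black bar the mean ± SD (n = 3). WT 3 is the highest and knockout 3 the lowest point in every panel, with Gbp2 at 1551 and 143 CPM.

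Since the 9 genes were chosen with this contrast known, their differences are a description and carry no test of their own. In the limma fit over all genes 0 of 9 passed (adjusted p from 0.836 to 0.905), beside 0.00835% of all genes, which is Ch25h alone. At an unadjusted p under 0.05 all 9 were lower, beside 3.79% of all genes that were lower and 5.41% in either direction. On the recovered reads 0 of 9 passed at an adjusted p under 0.05 with edgeR (0% of all genes) and 0 of 9 with DESeq2 (0.0919% of all genes), and each had all 9 at an unadjusted p under 0.05. The groups did not overlap in 4 of 9, beside 5.78% of all genes that were lower without overlap and 10.2% in either direction. A lower mean was found in 9 of 9, beside 50.4% of all genes. The median log2 difference was -1.31 over the 9 genes and -0.0021 over all genes tested.

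The size of the difference was smaller without library 3 of either group. The median over the 9 genes was -0.82 when WT 3 was left out, -0.80 when knockout 3 was left out and -0.44 when both were, and all 9 means stayed lower in the knockout. In that last case single genes lay between -0.79 (Gbp2) and -0.13 (Gbp3). The mean of WT 1 and 2 exceeded that of knockout 1 and 2 by 1.69-fold for Gbp2 and 1.09-fold for Gbp3, the ends of the range. Knockout 1 lay below WT 1 in 9 of 9 genes (51.4% of all genes) and knockout 2 below WT 2 in 9 of 9 (50.8%). Knockout 2 lay below WT 1 in 4 of 9 (52.2%). In the genes whose groups overlapped, the overlap lay only in knockout 2 above WT 1, so leaving out either library had to remove it. The groups then did not overlap in 9 of 9 genes, beside 15.5% of all genes lower without overlap when WT 1 was left out. That share was 10.9% when knockout 2 was left out. These counts therefore say nothing on how well the groups separate. With any other library left out, the count stayed at 4 of 9, beside 7.85% to 11.6% of all genes.

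**Figure D3:**
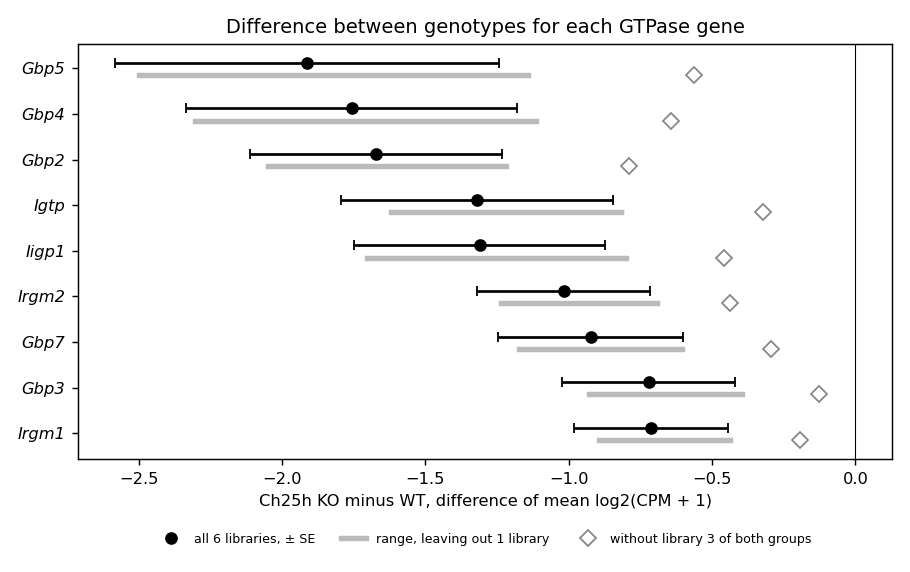
Difference between the means of log2(CPM + 1), knockout minus WT, for each GTPase gene: black points with SE bars use all 6 libraries, grey bars span the values when 1 library is left out, and open diamonds leave out library 3 of both groups. All values lie below 0, and the diamonds (-0.79 to -0.13) lie nearer to 0 than the points (-1.91 to -0.71).

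Set against exon length, the order of levels was led by Gbp2. Its level was 366 ± 217 CPM per kb of exon in WT (SD, n = 3), followed by Igtp at 174 ± 115 and Iigp1 at 174 ± 78.3 CPM per kb. Gbp7 (83.5 ± 34.3), Gbp3 (72.9 ± 31.0), Irgm1 (67.9 ± 21.4) and Gbp4 (51.6 ± 32.0 CPM per kb) formed the middle. Irgm2 (34.9 ± 11.8) and Gbp5 (15.02 ± 11.4 CPM per kb) were lowest. Neighbours in this order differed by less than the larger of their SDs, except Iigp1 from Gbp7 and Irgm2 from Gbp5. Lengths are unions of all annotated exons, which lowers the value of genes with long alternative ends. In the knockout Gbp2 again led at 114 ± 58.9 CPM per kb and Gbp5 was again last at 4.195 ± 3.21 CPM per kb.

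**Figure D4:**
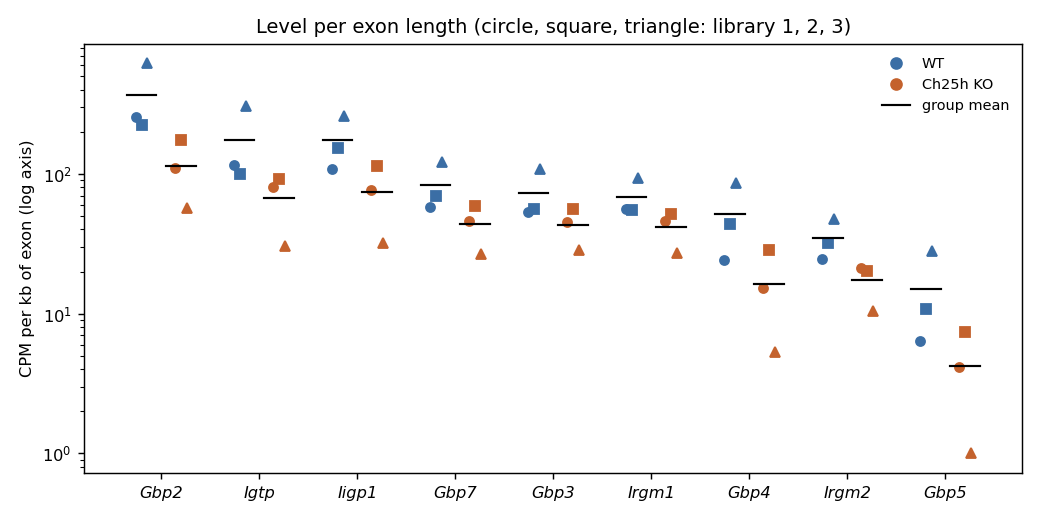
CPM per kb of exon on a log axis for each GTPase gene, ordered by WT mean; blue points are WT and orange points knockout libraries, with the marker giving the library number and a line at the group mean. Gbp2 leads at a WT mean of 366 CPM per kb and Gbp5 is last.

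Relatives of the same families had the same direction. Of 25 names of further Gbp, Irg and related genes, 16 were in the table and 14 had a mean of at least 1 CPM over the 6 libraries. In limma 0 of these 14 passed over all genes, and 11 had an unadjusted p under 0.05 (5.41% of all genes). All 14 had a lower mean in the knockout, beside 50.4% of all genes (median log2 difference -1.23, against -0.0021 over all genes). Their median was -0.77 when knockout 3 was left out and -0.39 when library 3 of both groups was. The groups did not overlap in 6 of the 14, beside 5.78% of all genes that were lower without overlap. These 6 were Gm12250, Tgtp1, Tgtp2, Ifi47, Gm4951 and Gm12185. Gm12250, which encodes the effector Irgb10 although GENCODE lists it as a processed pseudogene, stood at 112, 119 and 250.8 CPM in WT, against 58.6, 91.1 and 21.5 CPM in the knockout. Of its 1225 50-base windows 0 occur in another gene. Ifi47, also called Irgd, stood at 122.7, 112 and 287 CPM in WT, against 80.0, 101 and 37.0 CPM in the knockout.

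The remaining relatives covered a wide range of levels. Tgtp1 and Tgtp2, a nearly identical pair also called Irgb6, averaged 84.1 ± 39.3 and 102 ± 34.1 CPM in WT, and 36.7 ± 18.1 and 46.8 ± 24.7 CPM in the knockout (SD, n = 3). Mean CPM in WT, followed by that in the knockout, was 153 ± 69.2 and 76.2 ± 30.7 for Gbp9, 102 ± 66.8 and 34.3 ± 21.5 for Gbp6, and 162 ± 68.5 and 73.1 ± 37.3 for Gm4951. Gbp10 stood at 7.40, 19.9 and 74.5 CPM in WT, against 3.68, 8.89 and 2.04 CPM in the knockout. Gbp8 was at 29.7 CPM in WT 3 and at 0 reads in knockout 3, where a count of 0 allows up to 3 reads, or 0.0756 CPM. In the same order of means, Gbp11 had 10.9 ± 14.2 and 1.39 ± 0.897 CPM, F830016B08Rik 44.3 ± 27.4 and 18.9 ± 9.52 CPM, and Gm12185 9.04 ± 6.29 and 2.08 ± 1.46 CPM. Nearest to no difference were Irgq, at 20.2 ± 1.24 and 18.1 ± 2.30 CPM, and 9930111J21Rik1, at 16.6 ± 4.06 and 15.01 ± 1.1996 CPM, both with overlapping groups. The direction of 9930111J21Rik1 turned without WT 3 (log2 difference 0.039). Gm5431 (means 1.15 and 0.789 CPM) and 9930111J21Rik2 (means 0.284 and 0.154 CPM) were too low to be tested.

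Genes of interferon gamma signalling include its receptor chains and transcription factors. Of 19 such genes tested with limma, 0 passed over all genes and 5 had an unadjusted p under 0.05 (5.41% of all genes). A lower mean was found in 16 (50.4% of all genes). The median log2 difference was -0.15 (-0.28 without knockout 2, -0.27 without WT 1 and -0.26 without WT 2). The transcription factor gene Irf1 stood at 329, 303 and 657 CPM in WT, against 191, 225 and 88.4 CPM in the knockout, with no overlap between the groups (log2 difference -1.36 ± 0.37, SE; limma, adjusted p = 0.836). Batf2, a transcription factor gene that interferon gamma also induces, stood at 72.3, 48.9 and 144 CPM in WT, against 30.6, 36.3 and 11.4 CPM in the knockout, also without overlap (limma, adjusted p = 0.836). Of the 19 genes 4 were lower without overlap, beside 5.78% of all genes. The receptor chains Ifngr1 and Ifngr2, named after their values were seen, had log2 differences of -0.08 ± 0.13 and 0.03 ± 0.14 (SE). The gene of interferon gamma itself was not analysed here.

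Other targets of interferon gamma were followed beside the type I antiviral genes. Of 21 other interferon gamma targets, which include genes of antigen presentation, limma passed 0 over all genes. An unadjusted p under 0.05 was found for 14 (5.41% of all genes). Means were lower in 19 (50.4% of all genes), with a median of -0.76. That median was -0.49 when knockout 3 was left out and -0.24 when library 3 of both groups was. DESeq2 called 1 of them, Ido1, beside 0.0919% of all genes. This tryptophan-degrading enzyme gene stood at 4.93, 2.88 and 27.5 CPM in WT, against 0.429, 1.602 and 0.479 CPM in the knockout. Nlrc5, which switches on MHC class I genes, stood at 71.2, 78.2 and 122.96 CPM in WT, against 52.7, 57.1 and 33.4 CPM in the knockout. Neither gene overlapped between the groups. Of the 21 targets 6 were lower without overlap, beside 5.78% of all genes. Of 25 type I antiviral genes limma passed 0, and 1 had an unadjusted p under 0.05 (5.41% of all genes). In 17 the mean was higher in the knockout (5941 of all 11980 genes), with a median of 0.11. The sign of that median turned when WT 2 (-0.10) or knockout 1 (-0.04) was left out, and it was 0.29 without WT 1 and 0.29 without knockout 3. The gene under 0.05, Ifi44, stood at 174, 169 and 188 CPM in WT, against 231, 235 and 199 CPM in the knockout (limma, adjusted p = 0.892). Mx2, a dynamin-like antiviral GTPase gene, averaged 13.03 ± 4.77 CPM in WT, against 19.0 ± 3.79 CPM in the knockout (SD, n = 3; limma, adjusted p = 0.941). The difference between the GTPase list and the antiviral list was not tested, since the former was chosen on this contrast.

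**Figure D5:**
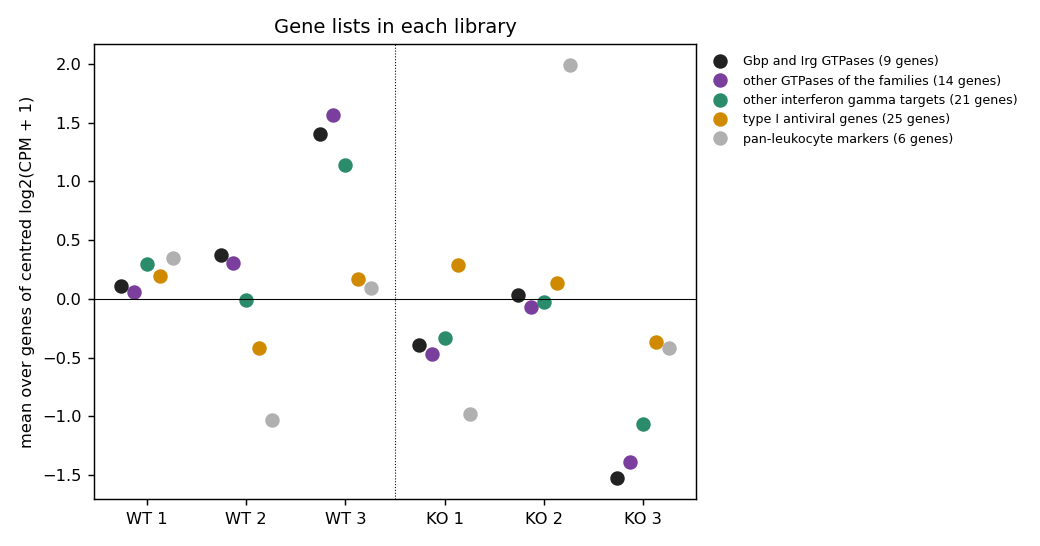
Mean over the genes of a list of log2(CPM + 1), centred on each gene's mean over the 6 libraries, in each WT and knockout (KO) library; colours mark the lists. The 9 GTPase genes reach 1.40 in WT 3 and -1.53 in knockout 3, while the type I antiviral genes stay between -0.42 and 0.29.

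Partners of the GTPases were read from 4 further lists, in each of which limma passed 0 genes over all genes. An unadjusted p under 0.05 was found for 5.41% of all genes. Conjugation factors that help load these proteins on vacuoles had a median of -0.03 over 11 genes, and 0 of them had an unadjusted p under 0.05. Without WT 1 the median was 0.03. Atg7 averaged 54.9 ± 5.24 CPM in WT, against 44.5 ± 4.72 CPM in the knockout, and Gabarapl2 15.3 ± 3.01, against 19.1 ± 1.97 CPM (SD, n = 3). Enzymes of prenylation, the lipid anchor that several Gbp proteins carry, had a median of 0.14 over 8 genes (0.02 without WT 1 and 0.06 without knockout 3), with 1 at an unadjusted p under 0.05. That gene was Fdps, which makes the lipid precursor, at 98.6 ± 22.4 CPM in WT, against 133 ± 20.95 CPM in the knockout. Rce1, a protease that trims prenylated proteins, averaged 75.3 ± 10.5, against 85.8 ± 3.95 CPM. Ubiquitin readers and ligases had a median of -0.22 over 7 genes (-0.44 without WT 1), with 2 at an unadjusted p under 0.05. These were Trim21 at 25.0 ± 7.53 CPM in WT, against 16.7 ± 0.986 CPM in the knockout, and Calcoco1 at 41.6 ± 5.06, against 29.9 ± 5.02 CPM. Inflammasome genes had a median of -0.38 over 8 genes, of which 2 had an unadjusted p under 0.05, and a median of -0.03 without library 3 of both groups. It was -0.65 when WT 2 was left out and -0.24 when knockout 3 was. The protease gene Casp1 stood at 9.31, 6.99 and 12.5 CPM in WT, against 3.35, 6.78 and 1.39 CPM in the knockout, and the pore gene Gsdmd averaged 91.9 ± 19.2, against 61.7 ± 9.50 CPM.

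The profile of the 9 GTPases over the 6 libraries was compared with those of 10245 other genes whose mean was 5 CPM or more. Likeness was the root mean square difference between a gene's centred log2(CPM + 1) values and the mean of the 9 genes, with a median of 0.90 log2 units over these genes. The nearest was Snx10, a sorting nexin gene, at 0.096, with 42.8, 56.5 and 94.3 CPM in WT, against 27.3, 40.0 and 13.1 CPM in the knockout. It was nearer than any of the 9 themselves, which ran from 0.11 (Iigp1) to 0.53 (Gbp5). F830016B08Rik (0.10), Tgtp1 (0.12), Ifi47 (0.13), Irf1 (0.14) and Tnfsf10 (0.15), which encodes the death ligand TRAIL, followed.

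Other properties of the libraries are given beside these results. The lymphatic markers were present in all 6 libraries, with Prox1 at 234 to 558 CPM and Lyve1 at 2280.3 to 3794 CPM. Fewer cells of a type and less RNA per cell cannot be told apart in these bulk samples. The 6 pan-leukocyte markers summed to 80.4, 106 and 77.4 CPM in WT, against 52.2, 237 and 105 CPM in the knockout. Ptprc, which encodes CD45, was at 0 in WT 2 and knockout 1. The sum is weighted to the highest genes and orders the libraries otherwise than the mean of centred log2(CPM + 1) over the 6 markers. That mean was 0.35, -1.03 and 0.09 in WT, against -0.98, 1.99 and -0.42 in the knockout, so WT 2 was lowest by it. Macrophage and dendritic markers, 9 of 13 in the table, summed to 338, 26.2 and 169 CPM in WT, against 36.4, 119 and 76.1 CPM in the knockout. Of 11 T and NK cell markers Cd2, Prf1 and Klrb1c were in the table, and their sums of 45.3, 37.0 and 44.4 CPM in WT and 31.7, 38.5 and 38.1 CPM in the knockout join opposite differences. Cd2 stood at 4.55, 2.53 and 3.33 CPM in WT, against 7.06, 10.5 and 14.5 CPM in the knockout, higher without overlap (DESeq2, adjusted p = 0.0387; limma, adjusted p = 0.836). Prf1 stood at 32.7, 29.7 and 34.7 CPM in WT, against 19.5, 24.0 and 17.8 CPM in the knockout, lower without overlap (limma, adjusted p = 0.836). Both Cd2 and Prf1 had reads in WT 2 and knockout 1, where Ptprc was at 0. Another pan-leukocyte marker, Coro1a, had 72 and 129 reads in these libraries. Which cells gave the Cd2 and Prf1 reads was not tested. The 9 dissociation stress genes summed to 2734, 2370.3 and 6871 CPM in WT, against 2416, 3507 and 4848 CPM in the knockout, so that WT 3 was the highest library in these genes as in the GTPases, while knockout 3 came next. Melanoma markers summed to 204, 66.0 and 42.5 CPM in WT, against 257, 158 and 105 CPM in the knockout, with the lowest sum in WT 3. A higher mean in the knockout was found in 7 of 8 of these genes, beside 5941 of all 11980 genes. Fibroblast and mural markers summed to 365, 75.9 and 274 CPM in WT, against 86.2, 147 and 208 CPM in the knockout, with an overlap. Blood endothelial markers summed to 1874, 1947 and 2867 CPM in WT, against 1705, 1356 and 1729.5 CPM in the knockout. Every knockout library thus lay below every WT library in this sum, as in 4 of the 9 GTPase genes. Most of the sum was Plvap, at 1497, 1619 and 2519 CPM in WT, against 1309, 1090 and 1183 CPM in the knockout. Of 7 blood endothelial markers tested 3 were lower without overlap (5.78% of all genes), while 2 had a higher mean. Their median log2 difference was -0.58. It ran from -0.67 to -0.32 when 1 library was left out, and from -1.03 to 0.14 under the other alternatives. These others include a filter at a mean of 5 CPM, which the marker Flt1 did not reach. The part of these marker and stress genes in the GTPase differences was not tested. Without knockout 2, the richest in pan-leukocyte markers, the median log2 difference of the 9 genes was -1.62. Knockout 2 was the highest knockout library in 8 of the 9 genes, so leaving it out had to widen the difference in these. That value therefore says nothing on the part of leukocyte markers.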

How the data were processed

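RNA from lymphatic endothelial cells was measured in 6 libraries made with SMART-Seq v4, which does not mark strand, and Nextera XT, per the labels' protocols. The submitters' processing notes name STAR 2.7.0, HTSeq 0.9.1, edgeR 3.26.8 and mm10, without roles. The deposited signal is CPM scaled by a factor per library. Every value (100% within 0.01) was a whole multiple of what 1 read was worth in its library (0.0216 to 0.0268 CPM). Recovered reads summed to 36556824 to 46165273 per library, and TMM factors computed from them, 0.967 to 1.02, equalled those in the deposited values. The 9 genes held 263 to 71793 reads each per library. Limits from a count of 0 cover counting error only.

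Groups were read from the genotype and library numbers from the titles. limma (3.58.1, R 4.3.3) was fitted to log2(CPM + 1) by group, with a trended prior and a threshold of 0.05 after Benjamini-Hochberg adjustment across 11980 genes, those whose mean reached 1 CPM. This scale understates changes of low genes. edgeR 4.0.16 and DESeq2 1.42.0 were run on recovered reads as alternatives, and all fits were tested on simulated data. Members and lists were chosen with earlier results of these data known. Named are the 9 genes, all listed relatives, Ch25h, of each pathway list the 2 genes of smallest p, and the 6 nearest profiles. Annotation was GENCODE M21 (mm10) and RefSeq promoters. Other scalings, filters, pseudocounts and left-out libraries are given in the closing section.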

Additional observations from a re-analysis of the deposited data

How the results depend on the processing

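All 9 GTPase genes kept a lower mean in the knockout under each of the 17 alternatives that gave a value, and 0 passed over all genes in any. Another filter or a replicate block cannot move these differences in limma, so those alternatives were no check of their direction. The median log2 difference of the 9 genes ran from -1.62 to -0.80 when 1 library was left out. Leaving out library 3 of both groups gave -0.44, a move larger than the spread between libraries. The number whose groups do not overlap ran from 4 to 9 when 1 library was left out, beside 7.85% to 15.5% of all genes. It was 9 only without WT 1 or without knockout 2, whose removal had to end every overlap. Over all genes, 1 gene, Ch25h, was called, 0 with a pseudocount of 0.25 or with edgeR, and 11 with DESeq2, which did not call Ch25h (adjusted p = 0.208; edgeR, adjusted p = 0.839). Leaving out 1 library gave 0 to 2 calls, with 0 without WT 1 and 2 without WT 2. With the library number as a replicate block 1 gene was called, so the block changed no call. The median of the 9 was -1.31, which a balanced block cannot change. Deviations from the group means correlated at 0.24, -0.06 and -0.10 for libraries 1, 2 and 3, and not every library correlated best with its own number, so the numbers were not taken as pairs. The log2 difference of other genes changed sign when 1 library was left out: Fos (-1.07 to 0.22) without WT 3 or knockout 1, Ptprc (-0.30 to 1.89) and Coro1a (-0.21 to 1.55) without knockout 2, and 9930111J21Rik1 (-0.30 to 0.039) without WT 3. That of 9930111J21Rik1 was 0.024 without library 3 of both groups. The cause was not tested. With 3 libraries against 3, an exact permutation test of a single value cannot go below p = 0.1.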

Other observations

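The make-up of the GTPase set differed between libraries along with its total. Each gene's share of the summed CPM per kb of the 9 genes is given as a description, since the set was chosen on this contrast. Gbp2 held 36.4%, 30.2% and 36.9% in WT 1, 2 and 3, against 24.7%, 29.0% and 25.9% in knockout 1, 2 and 3. Its share was higher in every WT library. Gbp3 held 7.63%, 7.56% and 6.51% in WT, against 10.2%, 9.29% and 13.1% in the knockout. Irgm1 held 7.93%, 7.41% and 5.55% in WT, against 10.3%, 8.58% and 12.5% in the knockout, and Gbp7 held 8.28%, 9.36% and 7.34%, against 10.3%, 9.81% and 12.2%. In these 3 genes the share was higher in every knockout library. Igtp averaged 16.1% ± 2.46 in WT and 15.8% ± 2.19 in the knockout (SD, n = 3), with an overlap. The shares of Gbp4, Gbp5, Iigp1 and Irgm2 overlapped between the groups as well. Shares in a library are parts of one whole, so a lower share of Gbp2 raises those of other genes together. A share within the set shows unequal differences and not that any gene stayed level.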
